A study of Mus musculus with 21 samples.

Results

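Wild-type Kdm5b was overexpressed in a mouse acute myeloid leukaemia line, and the transcriptome of those cells (WT) was set against that of the same line carrying an empty vector (EV). The members are the 2 WT and the 2 EV libraries, chosen by their column names, which are 4 of the 21 libraries of the series, and the comparison runs across all genes. The line is an established one that was transformed by MLL-AF9, a fusion of the histone methyltransferase MLL with AF9, and every group here carries that fusion. Kdm5b or nothing was introduced with an MSCV-neo retrovirus, and 2 further libraries of the same line received H499A, a Kdm5b mutant without demethylase activity. The cells grew in OptiMEM with serum and stem cell factor. The labels do not say whether the libraries of a group came from separate cultures, infections or clones, so the p-values measure the spread between these libraries, which may be technical. The other 2 experiments of the series used NUP98-NSD1 leukaemia cells, and the one in which Kdm5b was knocked down there (3 shKdm5b and 3 shEV libraries) is used at the end.

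Kdm5b (also called JARID1B or PLU-1) is a member of the KDM5 family of histone demethylases, which remove methyl groups from lysine 4 of histone H3. Trimethylation of that lysine marks active promoters, so KDM5 enzymes are mostly described as repressors, although they also carry reader domains and bind other chromatin complexes. MLL-AF9 leukaemia depends on HOXA genes and Meis1, which hold the cells in a self-renewing progenitor state, and its differentiation in culture runs towards monocytes and granulocytes. The comparison of WT with EV asks what added Kdm5b changes in these cells, and that of WT with H499A asks what goes with its catalytic activity.

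Levels are given as normalised read counts, which are comparable between libraries but not between genes, since they are not divided by gene length. The WT libraries held 17509182 and 18576744 counted reads, the H499A libraries 19971560 and 19208006 and the EV libraries 18930532 and 17339691. WT replicate 1 stood apart in 1 respect: Rn18s-rs5, a ribosomal RNA gene, took 1.03% of its reads, against 0.283% in WT replicate 2 and 0.278% to 0.349% in the H499A and EV libraries. Without that library, 2609 genes were called higher and 2868 lower with WT than with EV. The myeloid identity of the line was plain in all 6 libraries, where Spi1, Cebpa, Itgam, Kit, Mpo, Lyz2 and Ptprc were all measured above the detection filter. Erythroid markers summed to 12.6 and 11.8 normalised counts with WT and to 53.3 and 57.2 with EV, and none of the 13 passed the filter. T and NK cell markers summed to 111 and 78.6 with WT and to 133 and 164 with EV, and none of 22 passed.

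Kdm5b itself was read first. The gene lies at chr1:134560171-134635285 on the plus strand of GRCm38 (ENSMUSG00000042207.17, GENCODE M21). It had 1409.6 and 1416 normalised counts in the WT libraries, 309 and 279 in the H499A libraries and 114 and 128 in the EV libraries. The 3 groups did not overlap, and both H499A libraries lay between the others. WT was 11.6-fold above EV and 4.8-fold above H499A. On the variance-stabilised log2 scale of the tests, which compresses genes of low count, the difference between WT and EV was 1.83 ± 0.04 (SE, limma adjusted p = 3.37e-23). A voom fit of the recovered counts, which does not compress, gave 3.55. An exact two-sided permutation test over 2 against 2 libraries gave p = 0.33, the smallest it can give. Because WT cells held so much more Kdm5b RNA than H499A cells, the level of Kdm5b and its catalytic activity cannot be told apart in any difference between WT and H499A. Whether the introduced sequence is of mouse origin is not stated, and if it is not, part of its reads may not have been counted.

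WT and EV libraries differed in most of the genes tested, and in most of them by little. Of 9456 genes tested, 2816 (29.8%) were higher and 3064 (32.4%) were lower with WT than with EV at a limma adjusted p under 0.05. The median difference of the called genes was 0.18 log2 units in either direction, and the median over all tested genes was -0.01. A change of at least 2-fold in normalised counts was seen in 267 called genes that rose (2.82%) and 114 that fell (1.21%). WT differed from H499A in 2662 genes that were higher (28.2%) and 2483 that were lower (26.3%) with WT. H499A differed from EV in 2147 genes that were higher (22.7%) and 2541 that were lower (26.9%) with H499A. These 3 comparisons share libraries in pairs, so their values are given side by side and not correlated. Since 62.2% of tested genes passed between WT and EV, a count of called members is read below against these shares.

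**Figure D1:**
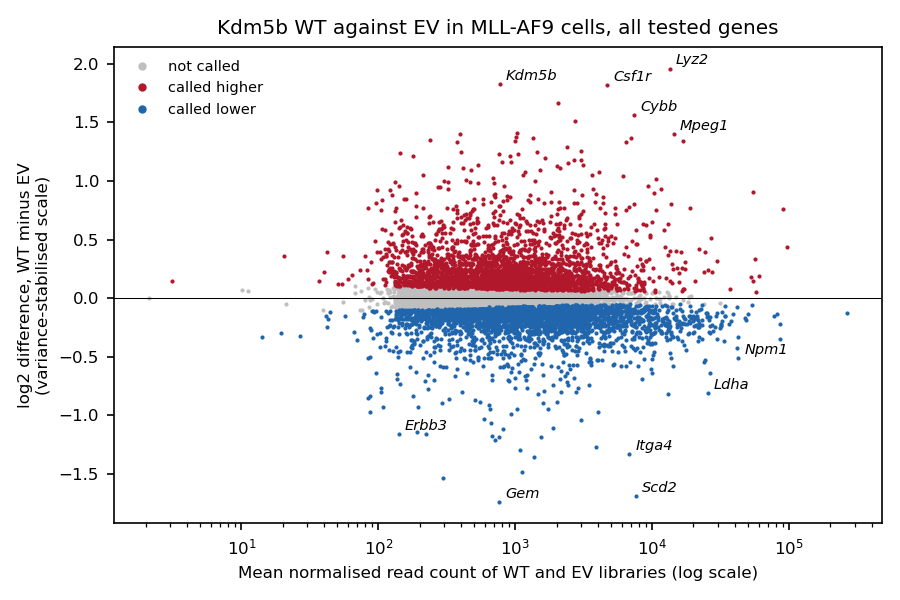
Log2 difference between WT and EV on the variance-stabilised scale (vertical axis) against the mean normalised read count of the WT and EV libraries (horizontal axis, log scale), 1 point for each of 9456 tested genes, red where called higher, blue where called lower and grey where not called. Calls of both signs fill the plot at small differences, with Lyz2, Kdm5b and Csf1r at the top and Gem and Scd2 at the bottom.

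The largest rises included the macrophage genes Lyz2, Csf1r and Mpeg1, which are on the list of monocyte and macrophage genes. Lyz2, which encodes the lysozyme of macrophages, had 21060.4 and 22242 normalised counts with WT, 9765 and 9415 with H499A and 5334 and 4936 with EV, 4.22-fold higher in WT than in EV (log2 difference 1.96 ± 0.03, limma adjusted p = 2.64e-26). Lyz2 has a close paralog, and how the counting divided shared reads is not stated. Csf1r, the receptor for macrophage colony-stimulating factor, had 7504 and 7674 with WT, 4839 and 4785 with H499A and 1891 and 1636 with EV, a 4.3-fold rise over EV. In both genes the order was WT over H499A over EV, with no overlap. Cybb, the membrane subunit of the phagocyte NADPH oxidase, had 11453 and 11151 with WT and 3567 and 3386 with EV. In H499A libraries it had 10249 and 10173, close below WT (log2 difference between WT and H499A 0.14, limma adjusted p = 4.43e-05). The pore-forming protein Mpeg1 of macrophages rose 2.77-fold, the lipid droplet coat protein Plin2 3.65-fold, the neutrophil collagenase Mmp8 4.56-fold and progranulin (Grn), a lysosomal growth factor, 2.83-fold over EV.

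Among the other large rises, Prkcb, a protein kinase C isoform, was 4.69-fold higher with WT than with EV. Dmrta2, a transcription factor of the DMRT family, had 3234 and 3485 with WT, 1705 and 1894 with H499A and 739.7 and 692 with EV. Chd7, a chromatin remodeller, rose 3.97-fold over EV. Fmnl2, a formin that builds actin filaments, had 716 and 719 normalised counts with WT, 71.5 and 85.9 with H499A and 68.1 and 64.7 with EV. Its rise was thus seen with WT, while H499A and EV did not differ beyond their spread (log2 difference between H499A and EV 0.06, limma adjusted p = 0.245). Fmnl2 reached the filter only with WT, so its direction was set by the filter. For these 12 genes, Kdm5b included, the limma adjusted p between WT and EV ran from 2.64e-26 to 2.19e-20, the latter for Fmnl2.

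The largest falls included fatty acid desaturases, an integrin and a desmosomal protein. Scd2, a stearoyl-CoA desaturase that makes monounsaturated fatty acids, had 3268 and 3296 normalised counts with WT, 6421 and 6305 with H499A and 11948 and 11707 with EV. It fell by 72.3% in WT against EV, with H499A midway and no overlap (log2 difference -1.69 ± 0.02, limma adjusted p = 1.27e-26). Fads2, a fatty acid desaturase, fell by 75.7%. Gem, a small GTP-binding protein, had 126 and 152 with WT, 513 and 481 with H499A and 1354 and 1409 with EV. The sphingosine-1-phosphate exporter Spns2 fell by 79.8%, and the actin-binding calponin Cnn3 fell by 74.1%.

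Itga4, the integrin alpha 4 subunit that anchors progenitors to VCAM-1 in the marrow, had 3727 and 3536 normalised counts with WT, 8635 and 8552 with H499A and 9999 and 9885 with EV. It fell by 63.5% in WT against EV, and H499A lay close below EV (log2 difference between H499A and EV -0.20, limma adjusted p = 2.23e-07). The adhesion receptor Adgrg1 (GPR56), a marker of leukaemia stem cells, fell by 63.9%, and Angpt1, the TIE2 ligand angiopoietin 1, fell by 68%. Arsb, a lysosomal arylsulfatase, had 265 and 247 with WT, 1046 and 1077 with H499A and 1088 and 1118 with EV, so that WT alone of the 3 groups was low. Erbb3, a receptor of the EGF receptor family, had 6.3 and 3.93 with WT, 342 and 299 with H499A and 277 and 274 with EV. Dsp, which encodes desmoplakin of cell junctions, fell by 92.4% in WT against EV. Dsp reached the filter only with EV, so its direction was set by the filter. Over the 12 largest falls the limma adjusted p ran from 1.27e-26 to 7.90e-18, the latter for Dsp.

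**Figure D2:**
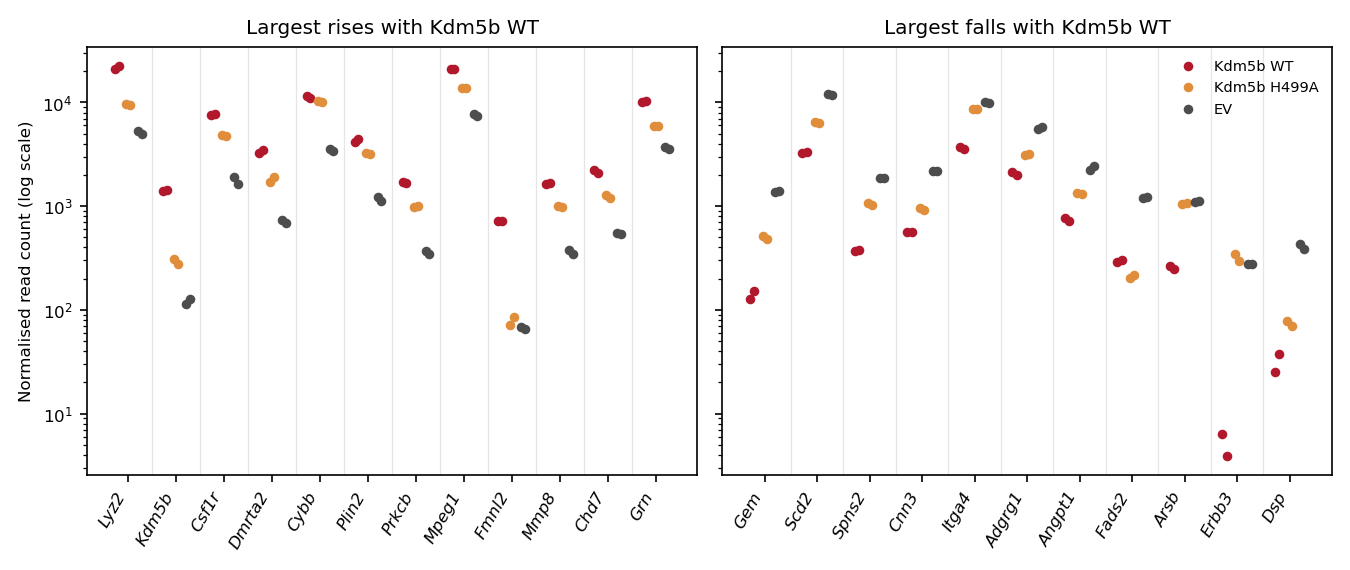
Normalised read counts (vertical axes, log scale) of genes with the largest rises (left panel) and the largest falls (right panel) with WT against EV, 1 point per library, with WT in red, H499A in orange and EV in grey from left to right within each gene. H499A points lie between WT and EV for most genes, but near EV for Fmnl2, Itga4, Arsb and Erbb3, near WT for Cybb and below WT for Fads2.

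Chromatin regulators were measured as the nearest partners of the introduced enzyme. Of the 8 listed H3K4 demethylases 6 were tested, and apart from Kdm5b they differed little. Kdm5a rose by 10.3% (limma adjusted p = 0.000944), Kdm5c fell by 10.1% (8.55e-05) and Kdm1a (LSD1) fell by 7.15% (0.00763, and 0.0515 without EV replicate 1). Among 19 methyltransferases of the same lysine and members of their complexes, 6 were higher (31.6%) and 12 lower (63.2%) with WT than with EV. The shares of all genes were 29.8% and 32.4%. The number higher was 3 without either EV library and 2 without WT replicate 1. Setd1a fell by 22.7%, the scaffold Wdr5 fell by 20.9%, and menin (Men1), the cofactor through which MLL fusions reach their targets, fell by 19.1%. Kmt2a, which encodes MLL, had 4153 and 4041 with WT, 6860.1 and 6811 with H499A and 4952 and 4721 with EV. WT was the lowest and H499A the highest of the 3 groups, with no overlap. The counts do not separate endogenous Kmt2a from reads of the fusion, which may share part of its sequence.

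Subunits of the repressive complexes were also lower. Of 11 tested subunits of PRC2, the methyltransferase complex of H3 lysine 27, 7 were lower with WT (63.6%, against 32.4% of all genes), and Suz12 fell by 16.4% and the catalytic subunit Ezh2 fell by 13.9%. The 2 that were higher, named after their values were seen, were Ezh1, the other catalytic subunit, at 1.37-fold, and Phf19 at 1.3-fold. Of 12 tested subunits of NuRD, a remodelling and deacetylase complex with which KDM5B is known to associate, 9 were lower and 0 higher. In H499A against EV, 8 were lower and 0 higher. The remodeller Chd3 had 2321 and 2208 normalised counts with WT, 2282 and 2353 with H499A and 3419 and 3382 with EV. WT and H499A overlapped and both lay under EV. The median of the NuRD list was -0.13 log2 units in WT against EV, and that of all tested genes was -0.01.

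HOX genes stood lower with WT than with H499A. Of 21 listed HOX cluster genes and cofactors 8 were tested, and in WT against EV 3 were higher and 3 lower, close to the shares of all genes. Hoxa9, a main dependency of MLL-fusion leukaemia, had 2953 and 2973 normalised counts with WT, 4664 and 4816 with H499A and 3790.3 and 3751 with EV. WT was lowest and H499A highest, with no overlap (log2 difference between WT and EV -0.30 ± 0.03, limma adjusted p = 1.40e-10). Hoxa10 and Hoxa11 rose 1.23-fold and 1.61-fold in WT against EV. Pbx3, a HOX cofactor, had 199.6 and 206 with WT, 878 and 919.6 with H499A and 144 and 140.3 with EV. In the direct test, all 8 were lower with WT than with H499A (median log2 difference -0.34, against 0.01 over all genes). In H499A against EV 7 were higher and 0 lower.

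Genes tied to stem cells and leukaemia self-renewal leaned downward with WT. Of 30 tested, 20 were lower and 6 higher than with EV (median log2 difference -0.18). Flt3, the FLT3 ligand receptor of progenitors, had 491 and 469 normalised counts with WT, 741 and 712 with H499A and 1428 and 1357 with EV. Sox4, a transcription factor that blocks myeloid maturation, fell by 47.1%, and Hmgb3, a high-mobility group protein of progenitors, fell by 51.8%. Kit, the stem cell factor receptor, fell by 21.3% and Meis1 fell by 12.3%; both were named after their values were seen. In H499A against EV 18 of the 30 were lower and 7 higher.

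Transcription factors that drive myeloid maturation mostly rose. Of 21 tested, 12 were higher (57.1%) and 4 lower (19%) with WT than with EV, against 29.8% and 32.4% of all genes. The median log2 difference was 0.13. H499A against EV gave 14 higher (66.7%) and 5 lower (23.8%), against 22.7% and 26.9% of all genes. Irf8, which directs progenitors to the monocyte lineage, had 5481 and 5677 normalised counts with WT, 4256 and 4224 with H499A and 3549 and 3428 with EV. Maf, a factor of macrophage maturation, had 535 and 488 with WT, 215 and 263 with H499A and 92.7 and 86.3 with EV, 5.71-fold higher in WT than in EV. Cebpd rose 2.53-fold and Zeb2 1.57-fold, and Spi1, which encodes PU.1, rose 1.4-fold. The 4 that fell, named after their values were seen, were Cebpa, Egr1, Runx3 and Junb. Cebpa fell by 12.4%, Egr1 fell by 24.7%, Runx3 fell by 30.3% and Junb fell by 19.7%. Cebpa, the factor of granulocyte commitment, was much lower with H499A (928 and 976) than with WT (2070.3 and 2103) or EV (2376 and 2387).

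Monocyte and macrophage genes had the largest median rise of the 28 pathway lists. Of 40 listed genes 26 were tested, and 23 were higher and 3 lower with WT than with EV (median log2 difference 0.89). Their summed level was 168208 and 170220.5 normalised counts with WT, 143735 and 143405 with H499A and 83718 and 80507 with EV. In bulk libraries such as these, more cells of a maturing type and more RNA per cell cannot be told apart. Ccr2, the receptor that brings monocytes out of the marrow, had 9611 and 9195 with WT, 6662 and 6683 with H499A and 3548 and 3249.7 with EV. Cd14, the lipopolysaccharide co-receptor, rose 2.62-fold and Cd68, a macrophage lysosomal glycoprotein, 1.79-fold over EV.

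The exceptions, named after their values were seen, went the other way with H499A. Lgals3, which encodes galectin 3 of macrophages, had 18.9 and 26.5 normalised counts with WT, 1461 and 1489 with H499A and 377 and 348 with EV. It was the most divided gene of the list, near absent with WT and above EV with H499A (log2 difference between WT and H499A -2.39, limma adjusted p = 7.04e-25). F13a1, the coagulation factor XIII chain of monocytes, had 8532 and 8577 with WT, 16486 and 16099.9 with H499A and 10534 and 10549 with EV. Fcgr1, the high-affinity IgG receptor, was also lower with WT than with EV at few counts, but not without EV replicate 2 (limma adjusted p = 0.142). Ly6c2, a surface marker of inflammatory monocytes, averaged 975 ± 35.2 with WT, 4450.2 ± 57.4 with H499A and 790.3 ± 19.1 with EV (SD, n = 2 each); it shares sequence with Ly6c1. Of the 26 genes, 19 were higher and 6 lower with WT than with H499A, and 25 were higher and 0 lower with H499A than with EV.

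Neutrophil and granule genes rose in part. Of 12 tested, 9 were higher (75%) and 3 lower (25%) with WT than with EV, against 29.8% and 32.4% of all genes. In H499A against EV 9 were higher and 1 lower. Fpr2, a formyl peptide receptor, had 693 and 730.1 normalised counts with WT, 367 and 343 with H499A and 86.8 and 107 with EV. Ms4a3, a marker of granulocyte and monocyte progenitors, rose 2.37-fold, and Csf3r, the G-CSF receptor, 2.05-fold. Mpo, the myeloperoxidase of primary granules, rose 1.36-fold. Elane, the elastase of the same granules, went the other way, with 642 and 681 with WT, 461 and 419 with H499A and 1406 and 1284 with EV. Padi4, which citrullinates histones in neutrophils, fell by 25.3% in WT against EV but was higher with H499A than with EV. The third, Prtn3, fell by 7.33%, while its log2 difference of -0.10 came to 0.01 under quantile normalisation.

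Receptors for growth factors and chemokines rose as a group, with 17 of 21 tested higher and 2 lower with WT than with EV (median log2 difference 0.50). In H499A against EV, 16 were higher and 1 lower. Il6st (gp130), the signalling chain of the IL-6 family, had 5530.3 and 5209 normalised counts with WT, 6317 and 6249 with H499A and 2961 and 2902 with EV, and Csf2rb, the common beta chain for GM-CSF and IL-3, rose 1.75-fold. The 2 that fell were the interleukin 1 receptor Il1r1 and the chemokine receptor Ccr1, of which Il1r1 fell by 77% and Ccr1 fell by 20.6%, with the Ccr1 call lost without WT replicate 2 (limma adjusted p = 0.0753). Il1r1 passed the filter only through the EV libraries. Of 9 chemokines and cytokines tested, 4 were higher and 4 lower (44.4% each, against 29.8% and 32.4% of all genes). Ccl3 fell by 40.6%, and Vegfa, the vascular growth factor, had 107 and 132 with WT, 293 and 327 with H499A and 302 and 309 with EV, so that WT alone was low. Among 20 integrins and adhesion genes 10 were higher (50%) and 8 lower (40%). Itgam, which encodes CD11b, rose 2.04-fold and Itgb5 2.83-fold.

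Lysosome genes of the list were higher with WT, all but 1 of those tested. Of 36 tested, 35 were higher and 0 lower with WT than with EV (97.2%, against 29.8% of all genes), at a median log2 difference of 0.50. Tfeb, the factor that drives lysosome genes, was the remaining one, with 518 and 556 normalised counts with WT and 496 and 480.1 with EV (limma adjusted p = 0.1). Arsb, given above among the largest falls, also encodes a lysosomal enzyme and is not on the list. The protease Ctsb had 14160.3 and 14685 with WT, 12196 and 12497 with H499A and 6894 and 6764 with EV. The protease Ctss rose 3.37-fold. Psap, the precursor of the saposins that aid sphingolipid breakdown, had 23937 and 23996 with WT, 24334 and 24225 with H499A and 14124 and 13525 with EV. WT and H499A did not differ in it beyond their spread (log2 difference -0.02, limma adjusted p = 0.526). Across the list, 26 genes were higher and 3 lower with WT than with H499A, and 32 were higher and 1 lower with H499A than with EV.

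Promoters are shown for 2 lysosome genes that rose, as examples of the E-box CACGTG, the core of the element that TFEB is known to bind. In all, 6 motifs were searched on both strands in the 250 bases before the annotated start, taken from RefSeq on GRCm38.p6; the motifs and the genes shown were chosen after their values were seen. CACGTG was present in 10 of 27 lysosome promoters (37%) and in 10.5% of 7129 promoters of tested genes. Among lists that fell, it was in 23.5% of cholesterol, 19% of glycolysis, 15.6% of MYC and ribosome biogenesis and 10.3% of S phase promoters. In the monocyte list, which rose, it was in 5%. Gaa, the acid alpha-glucosidase, rose 1.78-fold and its window is chr11:119267713-119267962, plus strand. Lamp1, a lysosomal membrane glycoprotein, rose 1.47-fold and its window is chr8:13158911-13159160, plus strand, with 4 matches. Capitals mark the motif.
Gaa: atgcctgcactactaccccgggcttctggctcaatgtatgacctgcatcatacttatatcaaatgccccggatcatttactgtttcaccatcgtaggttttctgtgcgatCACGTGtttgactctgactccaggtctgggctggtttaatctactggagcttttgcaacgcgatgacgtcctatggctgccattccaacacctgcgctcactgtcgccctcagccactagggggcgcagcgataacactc
Lamp1: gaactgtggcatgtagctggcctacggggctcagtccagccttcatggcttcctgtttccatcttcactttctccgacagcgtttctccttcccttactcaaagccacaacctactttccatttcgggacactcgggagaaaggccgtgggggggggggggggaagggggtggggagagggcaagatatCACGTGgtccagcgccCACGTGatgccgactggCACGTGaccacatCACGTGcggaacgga

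Cholesterol genes fell together, and by about as much with H499A. Of 24 tested genes of cholesterol synthesis and uptake, 21 were lower and 0 higher with WT than with EV (87.5%, against 32.4% of all genes), at a median log2 difference of -0.44. The median was -0.44 in H499A against EV as well, with 22 lower and 0 higher, and 0.00 between WT and H499A. Cyp51, a demethylase of lanosterol, had 578 and 577 normalised counts with WT, 691 and 721 with H499A and 1244 and 1220.3 with EV. Both WT libraries and both H499A libraries lay under EV. Idi1 and Fdps, enzymes of isoprenoid synthesis, were lower too, where Idi1 fell by 45.8% and Fdps fell by 40.1%. The 3 that did not pass were Mvk, Hsd17b7 and Ebp.

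The CCAAT box, bound by NF-Y, which is known to act with SREBP2 at these promoters, was in 16 of 17 of their promoters with a RefSeq window (94.1%) and in 41.3% of all. A sterol regulatory element written TCANNCCAC was in 1 of the 17 (5.88%) and in 3.91% of all. Cyp51 and Idi1 are shown, with CCAAT or its reverse complement in capitals. Their windows are chr5:4104698-4104947, minus strand, and chr13:8885356-8885605, plus strand.
Cyp51: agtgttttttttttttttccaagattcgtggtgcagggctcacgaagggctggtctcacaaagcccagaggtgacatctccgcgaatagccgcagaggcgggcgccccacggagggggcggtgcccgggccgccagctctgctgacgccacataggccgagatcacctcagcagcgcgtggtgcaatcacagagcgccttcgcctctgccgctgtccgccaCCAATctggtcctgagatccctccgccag
Idi1: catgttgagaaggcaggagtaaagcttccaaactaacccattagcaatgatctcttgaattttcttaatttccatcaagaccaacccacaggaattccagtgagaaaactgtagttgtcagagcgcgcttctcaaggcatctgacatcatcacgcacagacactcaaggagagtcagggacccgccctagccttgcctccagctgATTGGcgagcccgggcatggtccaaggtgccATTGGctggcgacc

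Glycolysis genes were mostly lower with WT than in both other groups. Of 22 tested, 18 were lower and 3 higher with WT than with EV (median log2 difference -0.41), and 18 were lower and 3 higher with WT than with H499A (median -0.43). Between H499A and EV 6 were higher and 7 lower (median 0.02). Ldha, the lactate dehydrogenase subunit that makes lactate, had 17962 and 18583 normalised counts with WT, 32634 and 31982 with H499A and 32239 and 32828 with EV. H499A and EV overlapped, and both WT libraries lay well under them (log2 difference between WT and EV -0.81 ± 0.02, limma adjusted p = 9.58e-21). The phosphofructokinase Pfkl fell by 53.8%, and the triosephosphate isomerase Tpi1 fell by 44.9%. Bnip3, a mitophagy receptor listed with these enzymes as a hypoxia-responsive gene, had 1050.4 and 1003 with WT, 2796 and 2839.8 with H499A and 2409 and 2471 with EV. The 3 that rose, named after their values were seen, were the hexokinase Hk3 (1.36-fold), the regulatory kinase Pfkfb3 (1.3-fold) and the lactate exporter Slc16a3, which had 639.7 and 634 with WT, 150.4 and 148 with H499A and 351 and 324 with EV.

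The core of the hypoxia response element, ACGTG, was in 12 of 21 glycolysis promoters (57.1%) and in 26.7% of all; each CACGTG holds it too. It was in 12 of 27 lysosome promoters (44.4%), genes that rose, and in 1 of 20 promoters of the monocyte list. The PU.1 motif GAGGAAGT was in 2 of those 20 (10%) and in 3.14% of all. Bnip3 and Pgk1, which encodes phosphoglycerate kinase and fell by 32.3%, are shown with the motif in capitals. Their windows are chr7:138909507-138909756, minus strand, and chrX:106186850-106187099, plus strand.
Bnip3: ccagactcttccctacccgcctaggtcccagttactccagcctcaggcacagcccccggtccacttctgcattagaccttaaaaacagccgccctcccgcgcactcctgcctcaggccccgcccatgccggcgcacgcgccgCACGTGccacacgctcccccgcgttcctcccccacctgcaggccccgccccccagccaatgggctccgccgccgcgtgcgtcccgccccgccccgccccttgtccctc
Pgk1: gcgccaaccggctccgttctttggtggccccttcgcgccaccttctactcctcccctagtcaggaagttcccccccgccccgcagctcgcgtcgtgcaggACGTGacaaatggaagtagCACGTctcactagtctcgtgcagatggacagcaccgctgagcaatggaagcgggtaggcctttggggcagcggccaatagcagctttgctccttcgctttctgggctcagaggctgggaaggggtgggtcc

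Most oxidative phosphorylation genes missed the test. Of 42 subunits tested, 12 were lower (28.6%) and 4 higher (9.52%) with WT than with EV, against 32.4% and 29.8% of all genes. The median log2 difference was -0.02. Without EV replicate 1, 7 were lower, and without WT replicate 1 or under quantile normalisation, 7 were higher. The ATP synthase subunit Atp5b fell by 15.9% and Atp5a1 fell by 12.5%, and Ndufb9 of complex I rose by 24.3%. Uqcrc1 of complex III had 4394 and 4641 normalised counts with WT and 4456 and 4519 with EV, and did not pass.

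Genes of DNA replication were lower with WT. Of 39 S phase genes, 36 were lower and 1 higher than with EV (92.3% lower, against 32.4% of all genes), at a median log2 difference of -0.21. Rrm2, the ribonucleotide reductase subunit that limits nucleotide supply, had 4124 and 4136 normalised counts with WT, 6494 and 6511 with H499A and 6294 and 6365 with EV. Of the subunits of the replicative helicase, Mcm3 fell by 24.5% and Mcm7 fell by 25.2%, and Uhrf1, which maintains DNA methylation, fell by 26.1%. Cdc45, another helicase component, was the exception at 1.13-fold. Against H499A, 24 of the 39 were lower with WT and 3 higher. In H499A against EV, 24 were lower and 1 higher. The E2F motif TTTCGCGC was in 4 of 29 S phase promoters (13.8%) and in 0.757% of all.

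Most mitotic genes missed the test. Of 38 G2 and M phase genes, 15 were lower (39.5%, against 32.4% of all genes) and 3 higher with WT than with EV. The other 20 did not pass (median log2 difference over the list -0.03). The checkpoint kinases Bub1b and Bub1 were lower, where Bub1b fell by 15.8% and Bub1 fell by 12.8%, and cyclin B2 (Ccnb2) fell by 13.6%. The proliferation marker Mki67 had 13807 and 12793 with WT, 12087 and 12308 with H499A and 13019 and 12719 with EV, where WT and EV overlapped (log2 difference 0.04 ± 0.03, limma adjusted p = 0.155). It was called higher without WT replicate 2 (0.10, adjusted p = 0.000276) and under quantile normalisation (0.12, adjusted p = 0.0005). Of the 3 that were higher, Aurka rose by 8.67%, Top2a by 4.56% and Prc1 by 8.01%, and each lost its call under some alternatives. Aurka missed the threshold without EV replicate 2 or WT replicate 2, and Top2a and Prc1 without either EV library or WT replicate 1 (limma adjusted p up to 0.123, 0.234 and 0.0796 for Aurka, Top2a and Prc1). Top2a also missed it with median centring (0.0747) and with eBayes without a trend (0.105).

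Inhibitors of the cell cycle rose in the same libraries. Of 8 tested CDK inhibitors and RB family members, 6 were higher (75%) and 1 lower (12.5%) with WT than with EV. The shares of all genes were 29.8% and 32.4%, and the median log2 difference of the list was 0.30. Cdkn2a, which encodes p16INK4A and p19ARF, had 318 and 315 normalised counts with WT, 84.5 and 87.8 with H499A and 61.1 and 61.5 with EV. It was 5.17-fold higher in WT than in EV and 3.68-fold higher than in H499A. Cdkn2a reached the filter only with WT, so its direction was set by the filter. Gene counts do not separate its 2 products. Cdkn1a (p21) rose 1.43-fold, Cdkn2c (p18) 1.26-fold and the pocket protein Rbl2 (p130) 1.36-fold, and Cdkn2d (p19INK4D) was the one that fell, by 18.9%.

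MYC targets and genes of ribosome biogenesis fell. Of 38 tested, 34 were lower and 0 higher with WT than with EV (89.5%), at a median log2 difference of -0.19, and 31 were lower and 0 higher than with H499A. Npm1, which encodes nucleophosmin, had 35061 and 34781 normalised counts with WT, 46738 and 46052 with H499A and 49493 and 50211 with EV. WT was below both other groups with no overlap, and H499A lay close to EV. Nucleolin (Ncl) fell by 26.3%, the initiation factor Eif4a1 fell by 19.4% and dyskerin (Dkc1) fell by 23%.

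Targets of p53 rose in the majority. Of 22 tested, 15 were higher (68.2%) and 4 lower (18.2%) with WT than with EV, against 29.8% and 32.4% of all genes. The median log2 difference was 0.18. In H499A against EV 13 were higher (59.1%) and 3 lower (13.6%), against 22.7% and 26.9% of all genes. Ccng1, cyclin G1, had 5824 and 5844 normalised counts with WT, 4321 and 4369 with H499A and 2975 and 2944 with EV. Zmat3, an RNA-binding protein, had 478 and 498 with WT, 174 and 190.1 with H499A and 146 and 139 with EV. Trp53inp1 rose 2.71-fold. Among 12 tested BCL2 family genes, 8 were higher (66.7%) and 2 lower (16.7%) with WT than with EV, at a median log2 difference of 0.11. The killers Bax, Bbc3 (PUMA) and Bcl2l11 (BIM) rose 1.57-fold, 1.96-fold and 1.57-fold, while Pmaip1 (NOXA) fell by 32.6%.

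Stress response genes were higher more often than lower. Of 31 tested genes of the integrated stress and unfolded protein responses, 19 were higher with WT than with EV (61.3%, against 29.8% of all genes). Lower were 9 (29%, against 32.4% of all genes). Stc2, a secreted glycoprotein and a known target of ATF4, had 271 and 255 normalised counts with WT, 121 and 126 with H499A and 16.8 and 20.5 with EV. It reached the filter only with WT. Chaperones and degradation factors of the endoplasmic reticulum were among those that rose, with Hspa5 (BiP) at 1.32-fold, the disulfide isomerase Pdia6 at 1.34-fold and Edem1 at 1.51-fold. Atf4, the central factor of the integrated stress response, fell by 17.1%, and Phgdh, the first enzyme of serine synthesis and one of its targets, fell by 18.5%; both were named after their values were seen.

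Haem, iron and NRF2 antioxidant genes rose, with 21 of 25 higher and 3 lower with WT than with EV (median log2 difference 0.34). H499A against EV gave 18 higher and 3 lower. Ftl1, the ferritin light chain that stores iron, had 69522 and 72011 normalised counts with WT, 61782 and 61877 with H499A and 37581 and 37376 with EV. Alas1, the first enzyme of haem synthesis, and Gclm, a subunit of the enzyme that starts glutathione synthesis, each rose 1.88-fold. The transferrin receptor Tfrc, which takes iron in, had 6342 and 6347 with WT, 7708 and 7517 with H499A and 10430.0 and 10743 with EV. The other 2 that fell were Tkt of the pentose phosphate pathway, which fell by 12.2%, and Cpox of haem synthesis, which fell by 21.5%.

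Interferon and antigen presentation genes gave no common direction in WT against EV. Of 29 interferon-stimulated genes tested, 9 were higher and 13 lower (median log2 difference 0.00), whereas 24 were higher and 3 lower with H499A than with EV. Tested directly, 23 of the 29 were lower and 2 higher with WT than with H499A (median -0.21). Ifi27 had 917 and 982 normalised counts with WT, 1159.8 and 1159.8 with H499A and 559 and 531 with EV. The guanylate-binding protein Gbp7 had 264 and 295 with WT, 509.8 and 481 with H499A and 459.6 and 489 with EV. Of 23 MHC class I presentation genes 8 were higher (34.8%) and 10 lower (43.5%), against 29.8% and 32.4% of all genes. The chaperone Calr rose 1.26-fold while the immunoproteasome subunit Psmb8 fell by 20.1%.

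Of 13 listed genes of MHC class II presentation 5 were tested, and 3 were higher and 0 lower (60% higher, against 29.8% of all genes). Cd74, the invariant chain, had 638 and 675 with WT, 1332 and 1373 with H499A and 259 and 262 with EV. H2-Ob, a regulator of peptide loading, had 166 and 172 with WT, 70.6 and 73.3 with H499A and 121 and 129 with EV. It reached the filter of 145 normalised counts only with WT, so its direction was set by the filter. Among developmental transcription factors typical of PRC2 targets, 4 of 30 had a row and 1 was tested. 

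Markers of other cell types were mostly undetected. Of 19 mast cell, basophil and eosinophil markers 4 were tested (Mcpt8, Gata2, Hdc and Siglecf), and all 4 were lower with WT than with EV. Mcpt8 and Siglecf reached the filter of 145 normalised counts only with EV, so their direction was set by the filter. Hdc reached it only with H499A, and Gata2 in every group. The list summed to 1130.2 and 1067 normalised counts with WT, 1304 and 1233 with H499A and 1937 and 1951 with EV. Of 14 B cell markers Cd79b was tested and was lower, and the list summed to 273 and 298 with WT, 760.5 and 744 with H499A and 364 and 361 with EV. Of 13 megakaryocyte markers Cd9 was tested and fell by 48.3%. Of 16 dendritic cell markers 6 were tested, 3 higher and 2 lower, and the list summed to 5489 and 5495 with WT, 6904 and 6954 with H499A and 5727 and 5628 with EV. Of 17 stromal and endothelial markers 1 was tested. That was Pecam1, which myeloid cells also bear, and it rose 1.48-fold. The part of other cell types in the results was not tested.

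**Figure D3:**
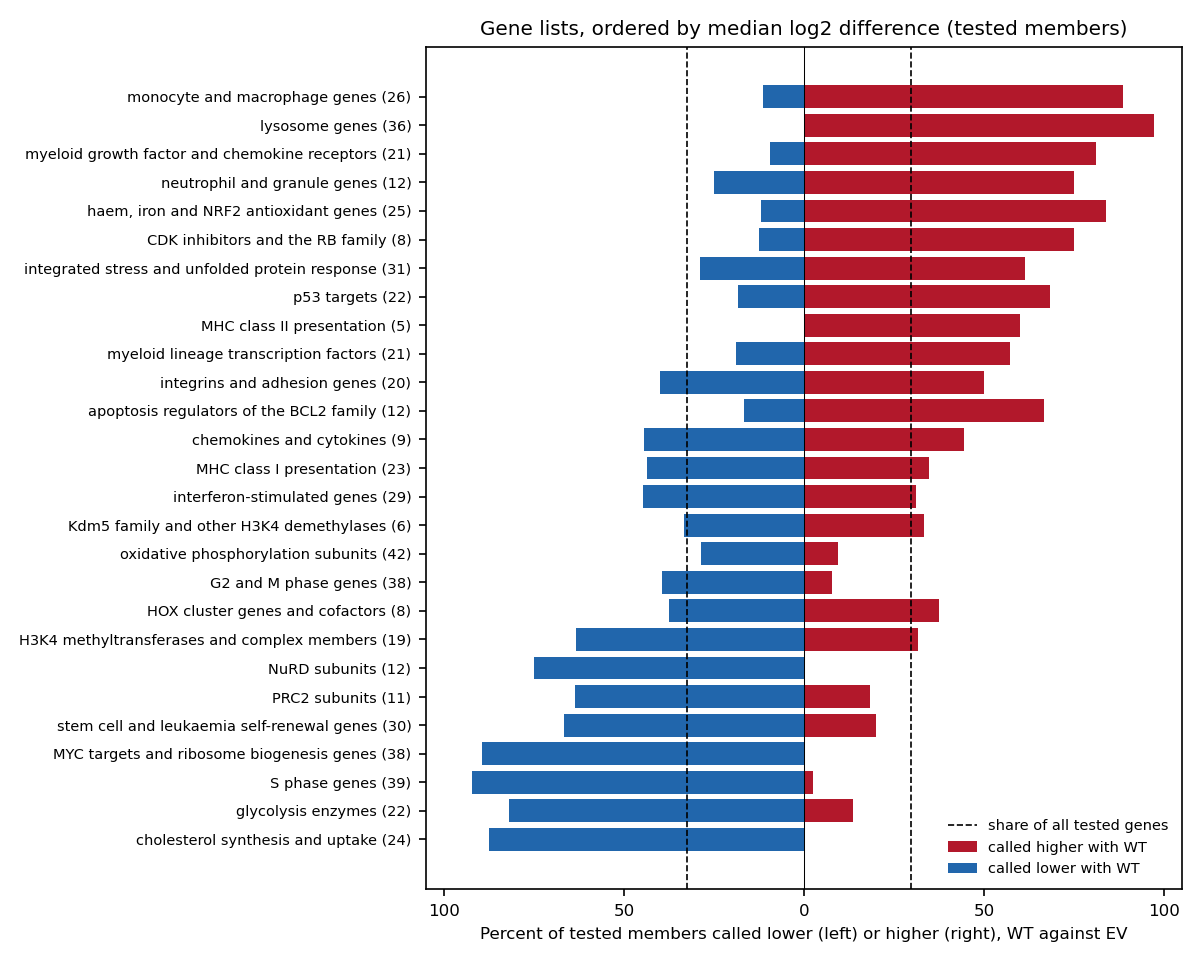
Share of the tested members of each of 27 gene lists called higher with WT than with EV (red, to the right) or lower (blue, to the left), in percent, with the number tested in brackets and lists ordered by their median log2 difference; dashed lines give the shares of all tested genes, 29.8% higher and 32.4% lower. Lysosome and monocyte lists extend far to the right, and cholesterol, glycolysis, S phase and MYC lists far to the left.

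Some genes were near absent in one group and present in the other. By a rule set after values were seen, at least 145 normalised counts in both libraries of one group and at most 20 reads in each library of the other, 9 genes were present with WT and near absent with EV. Armcx2 had 264 and 295 reads with WT, 27 and 22 with H499A and 2 and 3 with EV. Mgst1, a microsomal glutathione transferase, had 309 and 379 with WT, 194 and 190 with H499A and 13 and 12 with EV. Fer, a tyrosine kinase, had 196 and 193 with WT, 1 and 2 with H499A and 12 and 15 with EV, and Mgmt, the enzyme that repairs O6-alkylguanine in DNA, had 159 and 195 with WT, 49 and 45 with H499A and 11 and 13 with EV. The others were Fam20c, Pcdh7, Pld1, Psrc1 and Stc2, a secreted glycoprotein of the stress list with 258 and 259 reads with WT, 130 and 131 with H499A and 17 and 19 with EV.

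In the other direction 5 genes were present with EV and near absent with WT. Tbxa2r, the thromboxane receptor, had 6 and 0 reads with WT, 14 and 14 with H499A and 155 and 176 with EV. Padi2, a peptidylarginine deiminase, had 7 and 5 with WT, 40 and 40 with H499A and 171 and 146 with EV. Erbb3 had 6 and 4 with WT, 368 and 310 with H499A and 281 and 254 with EV, and H499A and EV did not differ in it beyond their spread (log2 difference 0.10, limma adjusted p = 0.0626). The others were Kcng1 and the predicted gene Gm13212.

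**Figure D4:**
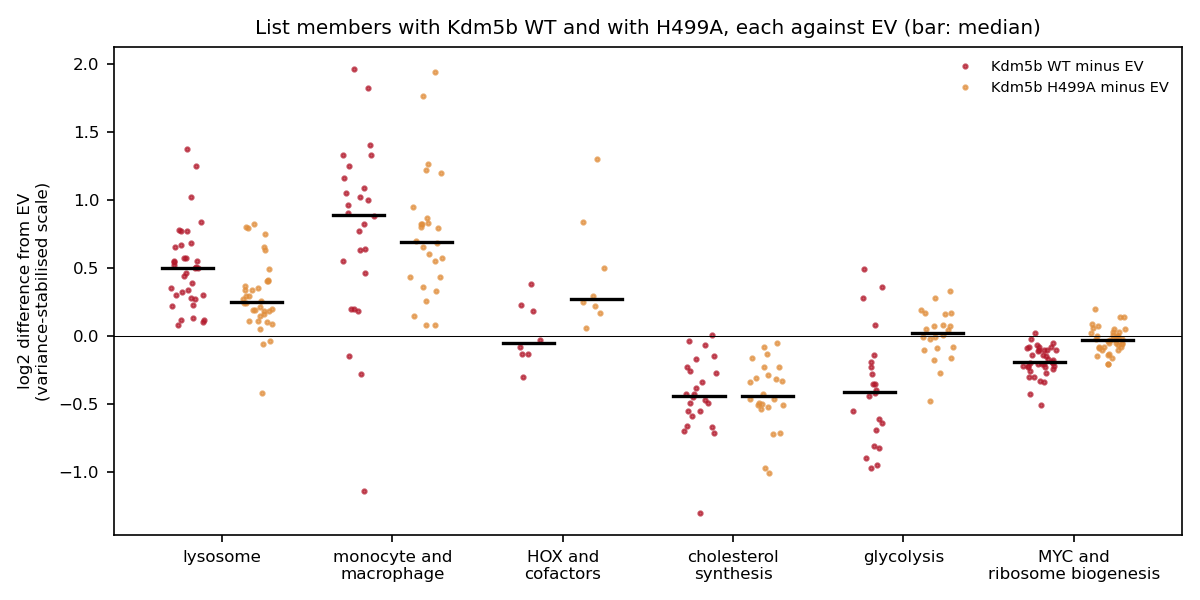
Log2 differences from EV on the variance-stabilised scale (vertical axis) for the tested members of 6 gene lists, 1 point per gene, WT in red to the left and H499A in orange to the right within each list, with bars at the medians; both share the EV libraries. The cholesterol medians are equal at -0.44, while the glycolysis medians are -0.41 with WT and 0.02 with H499A and the HOX medians -0.05 and 0.27.

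The opposite manipulation, knockdown of Kdm5b in NUP98-NSD1 cells, shares no library with WT or EV and was normalised and tested apart. Kdm5b had 34.1, 28.8 and 23.2 normalised counts with shKdm5b and 61.6, 94.8 and 67 with shEV, below the filter of that experiment (log2 difference -0.34, limma adjusted p = 0.00401 in a fit without the filter). Of 10808 genes tested there, 1623 (15%) were higher and 1885 (17.4%) lower with shKdm5b than with shEV. Without shKdm5b replicate 1 the counts were 2563 and 2994, and without an shEV library they ran from 890 to 955 and from 1015 to 1068. Over the 9106 genes tested in both experiments, the log2 differences of WT against EV and of shKdm5b against shEV had a Pearson r of -0.04.

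Genes called with WT were not, as a whole, called in the opposite direction with shKdm5b. Of 2714 genes higher with WT, 561 (20.7%) were lower with shKdm5b, against 18.4% of all 9106 genes. These were 33.5% of the 1675 genes lower with shKdm5b, where 29.8% of all 9106 were higher with WT. Of the same 2714, 485 (17.9%) were higher with shKdm5b, against 14.5% of all. They were 36.8% of the 1317 higher there, against the same 29.8%. Of 2900 genes lower with WT, 403 (13.9%) were higher and 561 (19.3%) lower with shKdm5b, against 14.5% and 18.4% of all. Single genes and lists differed. Maf, 5.71-fold higher with WT, was lower with shKdm5b (log2 difference -0.78, limma adjusted p = 0.000137), as were Prkcb (-0.60) and Alas1 (-0.74). Scd2 was lower in both (-1.03 with shKdm5b, limma adjusted p = 0.000128), and Ccr2 and Irf8 higher in both (2.27 and 0.60 with shKdm5b).

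Of all genes tested with shKdm5b, 15% were higher and 17.4% lower. By list, the haem, iron and NRF2 genes had 1 of 26 higher and 16 lower with shKdm5b, where WT had 21 of 25 higher. The glycolysis genes had 7 of 20 higher and 1 lower, where WT had 18 of 22 lower. The MYC and ribosome biogenesis genes were lower in both, 25 of 38 with shKdm5b. The lysosome genes had 2 of 35 higher and 9 lower with shKdm5b, and the cholesterol genes 2 of 24 higher and 7 lower. The monocyte and macrophage genes had 12 of 30 higher and 10 lower. The 2 experiments differ in fusion oncogene, vector and cell line as well as in the direction of the Kdm5b change, and these cannot be told apart.

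**Figure D5:**
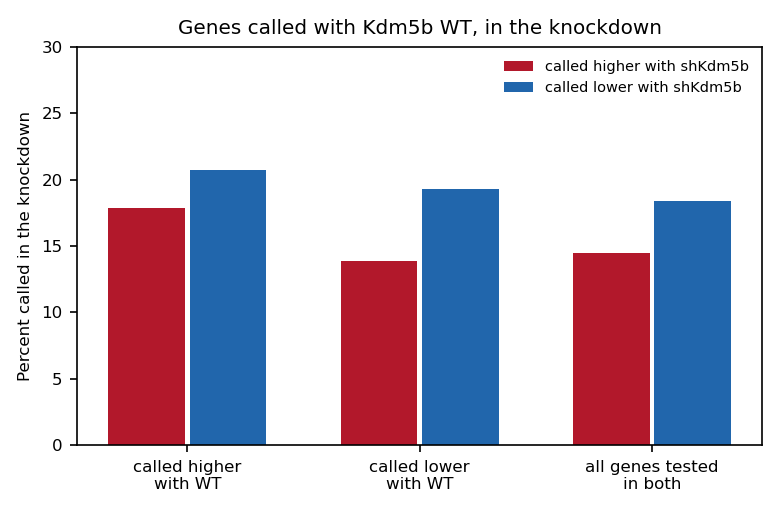
Percent of genes called higher (red) or lower (blue) with shKdm5b than with shEV in NUP98-NSD1 cells (vertical axis), among the 2714 genes higher with WT, the 2900 lower with WT and all 9106 genes tested in both experiments. The lower bars are 20.7%, 19.3% and 18.4% and the higher bars 17.9%, 13.9% and 14.5%.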

How the data were processed

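Per the submitters' processing notes, STAR 2.4.2, Salmon 0.1.19 and DESeq2 1.38.2 were used with the builds mm10 and GRCm38.p4; strand settings and the kit of each library (1 of 2 per the labels' protocols) are not given in the sources used here. The authors deposited log2 values after variance stabilisation, the lowest of which is 8.18232 in the overexpression table. Inverting that transformation in closed form gave normalised counts, which in 100% of values were whole multiples of 1 read within a tolerance of 0.05 and so gave reads and depth; as Salmon is named, these may be rounded estimates and not reads counted 1 by 1. Columns were matched to samples by name. The table had 13949 rows, of which 2 shared a symbol and were left out.

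A gene was tested if at least 2 of the 6 libraries had 145 normalised counts or more, which is 1 log2 unit over the minimum of the table, so a gene high in 1 group only passes through that group, and counts over tested members are not counts over all members. The deposited values were fitted with limma 3.58.1 in R 4.3.3 with 1 mean per group over the 6 libraries, eBayes with a trend and Benjamini-Hochberg adjustment over all tested genes, which left 3 residual degrees of freedom. The knockdown table was fitted in the same way with at least 3 of 6 libraries. Within groups, chi-square over its degrees of freedom was 9.98 for WT (2.01 without 9 ribosomal and 7S RNA genes), 1.5 for H499A and 1.77 for EV, above the counting error.

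The members, the 28 gene lists of pathways, the 7 of other cell types and the tests were chosen with earlier results of these data known. The genes named are Kdm5b, the 12 largest called changes each way whose libraries did not overlap, without predicted genes, and up to 4 called members of each list with the lowest adjusted p (or members that missed, where few were called), 127 in all, some of which are not reported here; 60 more were named after their values were seen, mostly as exceptions in a list and the near-absent genes. Of these 187 genes, 186 had 1 record in GENCODE M21. Alternatives changed the filter, the scaling, the eBayes settings, the samples fitted, the replicate block, the fold minimum and, with voom on the recovered counts, the model.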

Additional observations from a re-analysis of the deposited data

Results flagged for a closer look

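Among the genes named, 15 were called in opposite directions against EV in WT and in H499A, and differed between WT and H499A in the direct limma test. Both comparisons share the EV libraries, and WT cells also held more Kdm5b RNA than H499A cells. Most of the 15 were named after their values were seen, many as exceptions in a list. Their number thus depends on how genes were picked, and the share over all tested genes was not counted.

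Lower with WT than with EV and higher with H499A than with EV were 12 of them. The log2 difference between WT and H499A was -2.39 for Lgals3, -1.12 for Bnip3, -0.89 for F13a1, -0.77 for Cd79b, -0.71 for Pgk1 and -0.67 for Kmt2a. It was -0.59 for Hoxa9, -0.59 for Padi4, -0.58 for Fcgr1, -0.58 for Ccr1, -0.40 for Hdc and -0.35 for Hoxa7. Fcgr1 and Hdc had few counts, and the calls of Fcgr1 and Ccr1 between WT and EV were lost when EV replicate 2 (Fcgr1) or WT replicate 2 (Ccr1) was left out.

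The reverse, higher with WT than with EV and lower with H499A than with EV, was seen in 3. The log2 difference between WT and H499A was 1.06 for the kinase Fer, 0.97 for the lactate exporter Slc16a3 and 0.36 for H2-Ob. Fer and H2-Ob reached the filter only with WT, so that their rise with WT was set by the filter. Fer had only 1 and 2 reads with H499A and 12 and 15 with EV. Likewise, Fcgr1 and Hdc above reached the filter only with H499A.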

How the results depend on the processing

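Of 175 named genes called between WT and EV, 168 kept direction and call under all 15 alternatives. Prtn3 came to 0.01 under quantile normalisation (limma adjusted p = 0.872), against -0.10; the cause was not tested. The call of 6 others was lost somewhere, among them Kdm1a without EV replicate 1 (-0.08, adjusted p = 0.0515), and 5 that had missed gained one somewhere, Mki67 among them. Kdm5b kept its call, at 1.79 to 3.55 log2 units. For WT against EV, a filter at 2 log2 units left 1795 genes called higher and a 2-fold minimum left 267 higher and 114 lower; leaving out 1 library gave 2405 to 2776 and 2562 to 2989. For WT against H499A the filter at 2 units left 1736 higher and the fold minimum 107 and 141; leaving out 1 library gave 2127 to 2600 and 2027 to 2411. For the knockdown, leaving out 1 library gave 890 to 2563 and 1015 to 2994. With the filter at 2 units, fewer genes were tested, and 2 chemokines, 7 p53 targets and 5 BCL2 family genes were called higher and 6 interferon-stimulated genes lower. Leaving out 1 library, 7 (without EV replicate 1) to 11 oxidative phosphorylation genes were called lower, against 12. Replicate numbers did not pair the libraries (correlations of deviations -0.0307, -0.0117 and -0.0542); with the replicate block the counts were 2848 and 3106 for WT against EV and 2709 and 2528 against H499A. With 2 libraries per group no single-gene permutation test can pass, genes of low count are compressed, and the kit of each library was not given.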
